A study of Homo sapiens with 52 samples.

Results

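The genes described here are 10 inflammatory mediators of macrophages, IL1A, IL1B, IL1RN, IL6, IL10, IL18, TNF, NLRP3, PTGS2 and TGFB1. They were chosen by symbol, as genes of macrophage inflammation. The rule used no measured value, but earlier results of these data were known when the choice was made. All 10 were present among the 61209 genes counted in THP-1 macrophages and among the 62696 genes counted in the tumour lines. Enough reads for a test were found for 7 of them in THP-1, 3 in HepG2 and 2 in Huh6.

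The study sequenced poly(A) RNA in 52 libraries to follow Wnt and midkine (MDK) signalling in hepatoblastoma, a liver tumour of childhood, and in macrophages that had met the tumour cells. THP-1 is a monocytic leukaemia line. In all 7 THP-1 groups, the monoculture included, it was turned into macrophages with 80 ng/ml PMA for 48 h and then rested for 48 h. THP-1 macrophages were cultured for 24 h with HepG2 cells or with Huh6 cells, both of them hepatoblastoma lines, which had received 0, 5 or 10 µM of the midkine inhibitor iMDK for 24 h before, or were kept alone, and were sorted from the tumour cells before extraction (3 libraries per group, 21 in all). The tumour lines were also cultured without macrophages for 48 h with the Wnt inhibitor PKF118-310, with iMDK or with vehicle. HepG2 received PKF118-310 at 0.2 µM (3 libraries) or 0.3 µM (1 library), iMDK at 5 or 10 µM (3 libraries each) or vehicle (3 libraries). Huh6 received PKF118-310 at 0.2, 0.3 or 0.4 µM, iMDK at 5 or 10 µM or vehicle (3 libraries each). Every group is a single cell line, and the macrophages are PMA-treated leukaemia cells and not primary cells. The labels do not say that the 3 libraries of a group came from separate cultures, so n counts libraries, and p-values measure the spread between these libraries, which may be technical.

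Interleukin 1 alpha and interleukin 1 beta (IL1A, IL1B) signal through a shared receptor, and IL1RN encodes the antagonist that occupies this receptor without signalling. The IL1B and IL18 proteins are made as inactive precursors that inflammasomes such as the one built on NLRP3 help to mature, so an RNA level does not give the amount of active cytokine. TNF and IL6 are released early in inflammation, IL10 and TGFB1 restrain it, and PTGS2 makes prostaglandins from arachidonic acid. In macrophages NF-kappaB, AP-1 and C/EBP factors are known regulators of several of these genes.

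The start regions of IL1B, TNF and IL1RN are shown because these 3 genes were lower in macrophages kept with either tumour line, and that of IL1A because it was higher in tumour cells given iMDK. Each window runs from 250 bases before to 50 bases after an annotated start on GRCh38.p14, from RefSeq, 5′ to 3′ on the strand of the gene. Capitals mark matches, on either strand, to an NF-kappaB motif, to the AP-1 motif TGANTCA or to the C/EBP motif TTGCNNAA. The windows are IL1B at chr2:112836730-112837029 (minus strand), TNF at chr6:31575315-31575614 (plus strand), IL1RN start 1 at chr2:113117721-113118020 and start 3 at chr2:113127348-113127647 (plus strand), and IL1A start 1 at chr2:112784444-112784743 (minus strand).
IL1B: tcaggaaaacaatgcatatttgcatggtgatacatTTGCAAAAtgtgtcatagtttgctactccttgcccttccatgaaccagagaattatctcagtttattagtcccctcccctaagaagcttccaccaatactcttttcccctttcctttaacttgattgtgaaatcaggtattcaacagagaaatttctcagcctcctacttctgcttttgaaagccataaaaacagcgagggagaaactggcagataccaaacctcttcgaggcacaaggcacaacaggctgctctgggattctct
TNF: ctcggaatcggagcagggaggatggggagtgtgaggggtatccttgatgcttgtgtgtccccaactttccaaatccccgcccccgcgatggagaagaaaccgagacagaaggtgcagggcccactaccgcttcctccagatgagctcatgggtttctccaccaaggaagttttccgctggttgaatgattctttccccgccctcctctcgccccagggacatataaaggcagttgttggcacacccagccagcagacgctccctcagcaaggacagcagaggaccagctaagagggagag
IL1RN start 1: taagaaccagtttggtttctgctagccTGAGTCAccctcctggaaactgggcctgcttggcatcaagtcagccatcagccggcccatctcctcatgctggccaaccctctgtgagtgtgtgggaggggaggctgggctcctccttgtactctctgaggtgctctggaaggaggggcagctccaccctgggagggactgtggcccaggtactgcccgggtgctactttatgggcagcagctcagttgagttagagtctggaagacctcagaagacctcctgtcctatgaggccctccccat
IL1RN start 3: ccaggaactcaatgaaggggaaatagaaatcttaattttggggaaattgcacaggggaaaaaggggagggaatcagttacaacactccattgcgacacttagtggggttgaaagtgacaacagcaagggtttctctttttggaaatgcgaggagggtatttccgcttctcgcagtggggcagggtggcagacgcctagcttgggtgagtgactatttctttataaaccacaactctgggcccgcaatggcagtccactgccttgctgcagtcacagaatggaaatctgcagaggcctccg
IL1A start 1: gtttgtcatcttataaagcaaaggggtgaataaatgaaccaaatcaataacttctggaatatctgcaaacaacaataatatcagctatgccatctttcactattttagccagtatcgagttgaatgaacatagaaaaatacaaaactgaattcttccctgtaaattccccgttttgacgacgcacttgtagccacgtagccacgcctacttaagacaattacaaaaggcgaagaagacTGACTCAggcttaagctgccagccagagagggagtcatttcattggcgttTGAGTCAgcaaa
The IL1B window held 1 C/EBP match, 215 bases before the start. The first IL1RN window held 1 AP-1 match, 223 bases before its start, and the IL1A window held AP-1 matches 12 bases before and 38 bases after its start. The TNF window and the third IL1RN window held no match to the 3 motifs, which says only that these letters are not in these 300 bases. Of 14 start windows of 9 of the 10 genes, 2 held the NF-kappaB motif, 4 the AP-1 motif and 4 the C/EBP motif. The first and the second IL1A window overlap and hold the same pair of AP-1 matches, so 2 of the 4 AP-1 windows count 1 stretch. Among 35116 windows of the same length over all genes, the shares were 11.3%, 7.71% and 10.5%. These matches are descriptions and not sites of binding.

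Library totals lay between 12.6 and 16.9 M counts in THP-1, 18.3 and 20 M in HepG2, and 18.2 and 19.9 M in Huh6. Levels are given as CPM, counts scaled to a library total of 1000000. For the 10 genes that total was first adjusted by TMM normalization factors. For listed genes, markers and estimated tumour reads it was not. A count of 3 came to 0.177 to 0.238 CPM in THP-1, 0.150 to 0.164 CPM in HepG2 and 0.151 to 0.165 CPM in Huh6. Of 14 macrophage markers, 13 could be tested and their summed level was 5730 to 6490 CPM over all THP-1 groups. The exception, CD68, was listed at 0 in every library. Relative to monoculture, 6 of the 13 passed as higher and 3 as lower with HepG2, where 33% of all genes passed. With Huh6 2 passed as higher and 1 as lower, where 5.98% of all genes passed. THP-1 libraries from co-culture also held reads of tumour genes. The summed level of 20 liver markers was 3000 to 3590 CPM with untreated HepG2, 1710 to 2270 CPM with HepG2 given 5 µM iMDK and 621 to 1240 CPM with HepG2 given 10 µM. It was 173 to 521 CPM with untreated Huh6, 119 to 138 CPM with Huh6 given 5 µM, 107 to 118 CPM with Huh6 given 10 µM, and 58.8 to 71.0 CPM in monoculture. ALB, the albumin gene of liver cells, had 849 to 1010 CPM with untreated HepG2 and 0.059 to 0.128 CPM in monoculture, and AFP, the fetal liver protein gene, was at 0 in monoculture. Of the 20 liver markers, 20 passed as higher with HepG2 and 15 with Huh6, relative to monoculture. From these markers, tumour reads were estimated at 7.25 to 9.72% of a library with untreated HepG2 and 0.389 to 1.68% with untreated Huh6. The main results on macrophages are also given after subtraction of the tumour line's own profile at that share.

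In THP-1 monoculture the mediators covered more than 3 orders of magnitude per kilobase of exon. TGFB1, the gene of transforming growth factor beta 1 (chr19:41301587-41353911), was highest at 184 CPM per kb. IL1RN (chr2:113107214-113134016) followed at 40.7 CPM per kb, and IL1B, also on chromosome 2 (chr2:112829751-112836903), at 16.6 CPM per kb. TNF (chr6:31575567-31578336) reached 4.11, IL10 2.12 and NLRP3 1.29 CPM per kb. PTGS2 at 0.135 and IL1A at 0.116 CPM per kb were lowest of those with reads, and their monoculture libraries overlapped. These positions are on GRCh38 by GENCODE 29, whose exon lengths were used. Genes on the opposite strand overlap 6.64% of the exon bases of TGFB1 and 20.7% of those of IL6, and reads of such partners could not be told apart, since no source used here states the strand setting of the counting.

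The other 2 genes gave no reads in THP-1. IL6 had 0 counts in 21 of 21 THP-1 libraries, 0 or 1 in the HepG2 libraries and 0 to 2 in the Huh6 libraries. IL18 was listed at 0 in all 52 libraries, as was the marker CD68, so nothing is read from its zeros. IL1A had 0 to 7 counts in the THP-1 libraries and 53 in all of them together, too few for a test in macrophages.

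Macrophages kept with untreated HepG2 had less RNA of IL1B, IL1RN and TNF than macrophages kept alone. IL1B, the precursor of interleukin 1 beta, had 17.1, 8.57 and 8.15 CPM with HepG2 (libraries 1, 2 and 3), against 98.9, 26 and 29.2 CPM in monoculture. All 3 HepG2 values lay below all 3 monoculture values, and library 1 was the highest of each group. The log2 fold change was -2.05 ± 0.181 (SE), that is 0.242 of the monoculture level, with an adjusted p of 2.17e-09 by edgeR's quasi-likelihood test with Benjamini-Hochberg adjustment and the library number as a block. Only 22 of the 15500 genes tested had a lower log2 fold change in this comparison. In bulk RNA of this kind, fewer cells expressing a gene and less RNA per cell cannot be told apart.

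IL1RN, whose product blocks the interleukin 1 receptor, fell as well. Its levels were 56.6, 66.5 and 67.7 CPM with HepG2, against 152, 122 and 123 CPM in monoculture, and the groups did not overlap. This gave a log2 fold change of -1.07 ± 0.0971 (edgeR quasi-likelihood test, Benjamini-Hochberg adjusted p = 3.31e-09). Library 1, the highest of the monoculture libraries, was the lowest of the HepG2 libraries. TNF, the early inflammatory cytokine, had 4.50, 2.48 and 1.70 CPM with HepG2, against 8.67, 6.82 and 5.16 CPM in monoculture, again without overlap. Its log2 fold change was -1.34 ± 0.234 (edgeR quasi-likelihood test, Benjamini-Hochberg adjusted p = 6.54e-05). The call for TNF rested on the block, since the adjusted p by the same edgeR test was 0.117 without it.

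The other tested genes gave smaller differences that did not pass the test. TGFB1 had 555, 548 and 526 CPM with HepG2, against 636, 586 and 569 CPM in monoculture. These values did not overlap, yet the log2 fold change was only -0.14 ± 0.0585 (edgeR quasi-likelihood test, Benjamini-Hochberg adjusted p = 0.0771), and it was 0.03 after subtraction of tumour reads. IL10, an anti-inflammatory cytokine, had 3.61, 2.41 and 4.55 CPM with HepG2, against 4.80, 5.21 and 3.70 CPM in monoculture. The IL10 groups overlapped, with a log2 fold change of -0.38. It passed the test only without HepG2 library 3 (-0.67, edgeR's Benjamini-Hochberg adjusted p = 0.0301) or without library 3 of every group (-0.74, adjusted p = 0.0429). NLRP3, the inflammasome sensor, averaged 5.52 ± 1.41 CPM with HepG2 and 6.16 ± 0.398 CPM in monoculture (SD, n = 3 each). PTGS2, the inducible prostaglandin synthase, averaged 0.619 ± 0.306 CPM with HepG2 and 0.710 ± 0.117 CPM in monoculture. Both of these overlapped between the groups.

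In all, 3 of the 7 tested genes fell with HepG2 and 0 rose. Across all genes 33% passed in either direction and 16.2% fell. The median log2 fold change was -0.38 over the 7 genes and -0.01 over all genes. After subtraction of tumour reads the 3 differences were -1.87 for IL1B, -0.96 for IL1RN and -1.17 for TNF, with Benjamini-Hochberg adjusted p-values of 1.02e-07, 1.93e-07 and 0.000561 in edgeR. HepG2 reads could have contributed at most 3.42 CPM to IL1RN, 0.00164 CPM to IL1B and 0.0167 CPM to TNF in a library, by the same estimate.

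**Figure D1:**
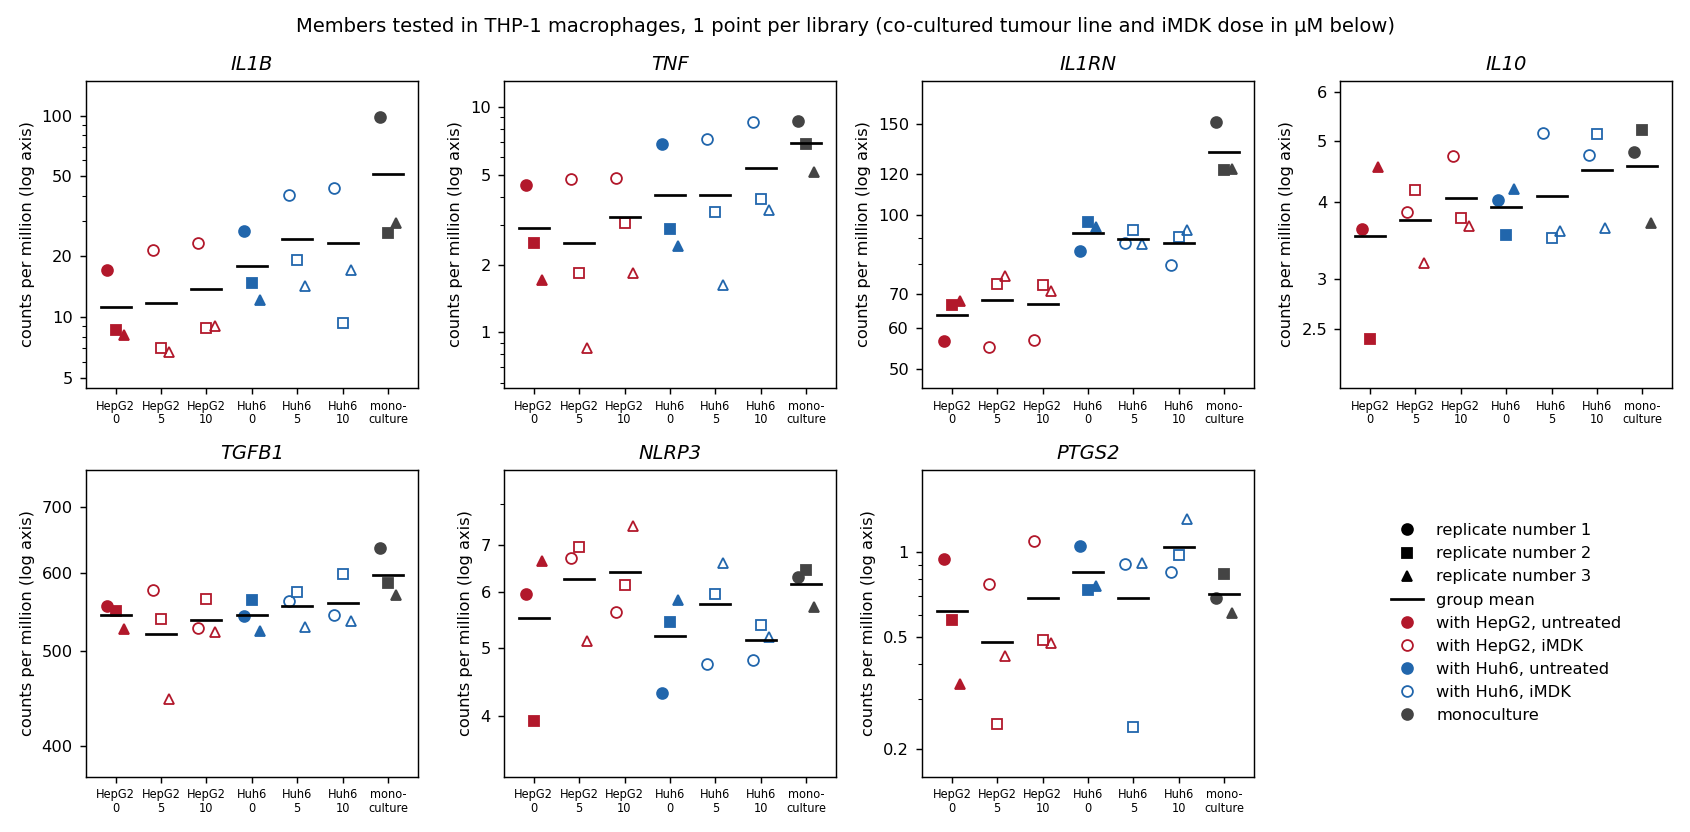
CPM (log axis) of the 7 genes tested in THP-1 macrophages, 1 point per library and 3 libraries per group, with HepG2 given 0, 5 or 10 µM iMDK, with Huh6 given 0, 5 or 10 µM iMDK, and in monoculture. Point shapes give the library (replicate) number and bars the group means, and for IL1RN the monoculture points of 122 to 152 CPM lie above the points of every co-culture group.

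IL1B, IL1RN and TNF were also lower with untreated Huh6 than in monoculture. This comparison shares its monoculture libraries with that of HepG2, so both sets of values rest on the same 3 control libraries. IL1B had 26.7, 14.7 and 12.1 CPM with Huh6, against 98.9, 26 and 29.2 CPM in monoculture. Library 1 with Huh6 reached the range of monoculture libraries 2 and 3, so the groups overlapped, although every Huh6 library lay below the monoculture library of its own number. IL1B had a log2 fold change of -1.37 ± 0.173 (edgeR quasi-likelihood test, Benjamini-Hochberg adjusted p = 1.39e-05), or 0.386 of the monoculture level. Within the numbers 1, 2 and 3 the log2 ratios were -1.89, -0.82 and -1.27. Without the block the adjusted p of IL1B by the same edgeR test was 0.276.

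IL1RN had 84.9, 96.8 and 94.7 CPM with Huh6, against 152, 122 and 123 CPM in monoculture, with no overlap. Its log2 fold change was -0.53 ± 0.0953 (edgeR quasi-likelihood test, Benjamini-Hochberg adjusted p = 0.000647). It was -0.34 when monoculture library 1 was left out (adjusted p = 0.0109 in edgeR). TNF had 6.86, 2.87 and 2.41 CPM with Huh6, against 8.67, 6.82 and 5.16 CPM in monoculture. Huh6 library 1 lay inside the monoculture range, and libraries 2 and 3 lay below it. TNF had a log2 fold change of -0.88 ± 0.227 (edgeR quasi-likelihood test, Benjamini-Hochberg adjusted p = 0.0174). This call was lost without the block (adjusted p = 0.719 in edgeR). It was also lost on leaving out number 2 or 3 throughout, monoculture library 2 or 3, or Huh6 library 1 or 2, with log2 fold changes of -0.96 to -0.71 and a highest adjusted p of 0.238 in edgeR.

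The remaining 4 tested genes gave log2 fold changes of -0.14 for TGFB1, -0.22 for IL10, -0.25 for NLRP3 and 0.22 for PTGS2, none past the threshold. TGFB1 had 542, 563 and 524 CPM with Huh6, all below the 636, 586 and 569 CPM of monoculture (edgeR quasi-likelihood test, Benjamini-Hochberg adjusted p = 0.213). With Huh6, 3 of 7 genes therefore fell and 0 rose, against 5.98% of all genes past the threshold in either direction and 1.9% that fell. The median log2 fold change was -0.25 over the 7 genes and 0.00 over all genes. With tumour reads subtracted, the differences were -1.35 for IL1B, -0.51 for IL1RN and -0.86 for TNF (adjusted p = 0.000123, 0.00345 and 0.0362 in edgeR).

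Set directly against each other, macrophages with HepG2 had less IL1B and IL1RN than macrophages with Huh6. This comparison does not use the monoculture. For IL1RN the levels were 56.6, 66.5 and 67.7 CPM with HepG2 and 84.9, 96.8 and 94.7 CPM with Huh6, without overlap, and the log2 fold change was -0.54 ± 0.098 (edgeR quasi-likelihood test, Benjamini-Hochberg adjusted p = 0.00017). After subtraction it was -0.45 (adjusted p = 0.00198 in edgeR). For IL1B the groups overlapped, and the log2 fold change was -0.67 ± 0.192 (edgeR quasi-likelihood test, Benjamini-Hochberg adjusted p = 0.00951), with log2 ratios of -0.64, -0.78 and -0.57 within the 3 numbers. The IL1B call was lost after subtraction of tumour reads (-0.52, adjusted p = 0.0539 in edgeR) and without the block (-0.66, adjusted p = 0.519). It was lost too without HepG2 library 1 (-0.47, adjusted p = 0.12) or Huh6 library 2 (-0.48, adjusted p = 0.099). Tumour reads of IL1B itself were estimated at no more than 0.00164 CPM with HepG2 and 0.0023 CPM with Huh6 in a library. TNF differed by -0.46 ± 0.247, which did not pass (edgeR quasi-likelihood test, Benjamini-Hochberg adjusted p = 0.17). TGFB1 differed by 0.00, IL10 by -0.16, NLRP3 by 0.09 and PTGS2 by -0.45 on the log2 scale, none past the threshold. So 2 of 7 genes were lower with HepG2, where 29.1% of all genes passed in either direction and 15.1% were lower.

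**Figure D2:**
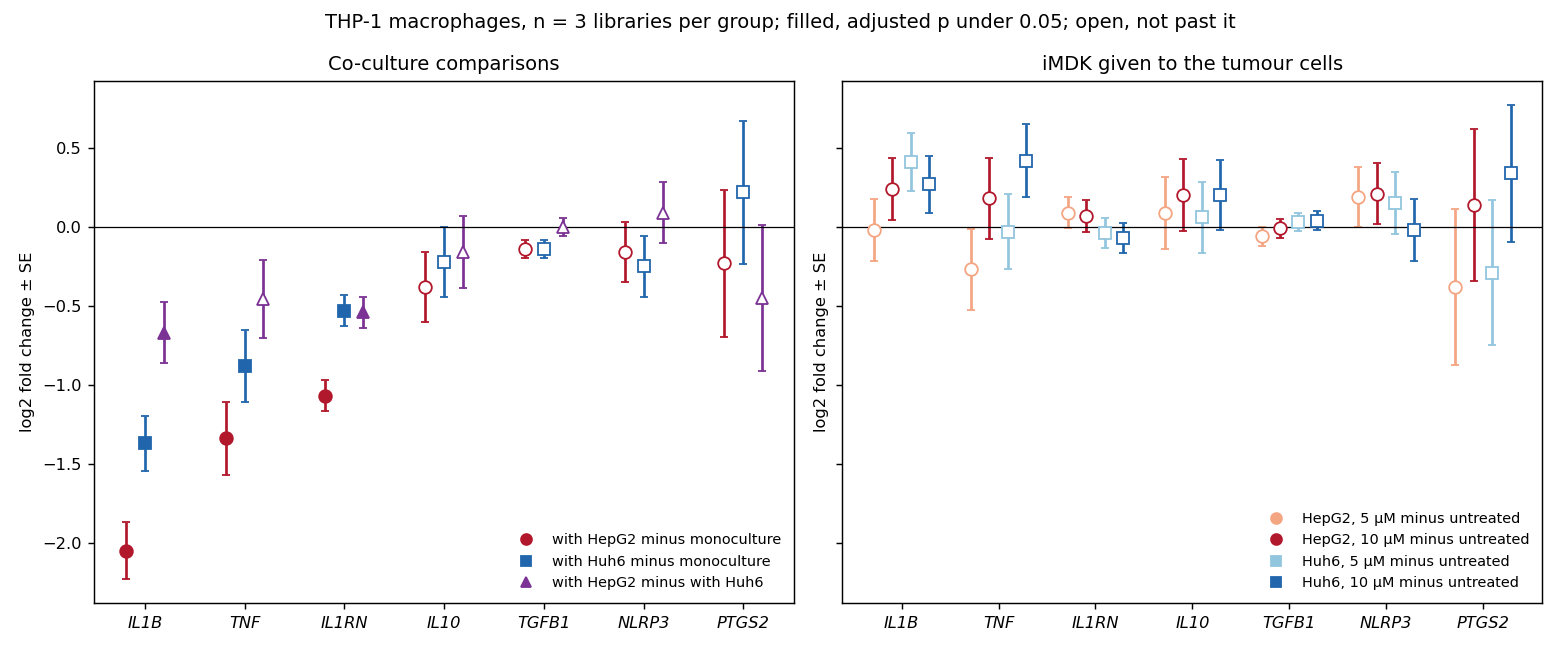
Log2 fold changes (points) with standard errors (bars) of the 7 tested genes in THP-1 macrophages, for the co-culture comparisons on the left and the iMDK comparisons on the right, where filled points have an adjusted p under 0.05. IL1B, IL1RN and TNF lie below 0 in the 3 co-culture comparisons, TNF without passing between HepG2 and Huh6, and no point on the right is filled.

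IL1RN and IL1B encode a receptor antagonist and an agonist, and both fell, so their ratio was set out by library. Counts of IL1RN per count of IL1B were 3.31, 7.76 and 8.31 with HepG2, 3.17, 6.6 and 7.82 with Huh6, and 1.54, 4.69 and 4.23 in monoculture. The ratio was higher than in monoculture in 3 of 3 numbers with each tumour line, although library 1 was the lowest of every one of these groups. The mean log2 ratio was 2.58 ± 0.739 with HepG2 and 2.45 ± 0.692 with Huh6, against 1.64 ± 0.888 in monoculture (SD, n = 3 each). Within the numbers 1, 2 and 3 the difference of the log2 ratio from monoculture was 1.11, 0.73 and 0.98 with HepG2, and 1.04, 0.49 and 0.89 with Huh6. These differences averaged 0.94 ± 0.193 with HepG2 and 0.81 ± 0.284 with Huh6 (SD, n = 3 each). An exact two-sided permutation of their signs within numbers, chosen after seeing the data, gave p = 0.25 for each, the smallest p that 3 numbers allow, so this test could not pass (Benjamini-Hochberg adjusted p = 0.438 over 7 comparisons). The exact permutation that ignores the numbers gave p = 0.3 for each, adjusted to 0.8 over the 7, and could not go below 0.1.

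The library numbers ordered some genes across groups. For IL1B, library 1 was the highest in 7 of 7 THP-1 groups. For TNF, library 1 was the highest and library 3 the lowest in 7 of 7 groups. Library 3 had the lowest TGFB1 in 7 of 7 groups, and library 1 the lowest IL1RN in 5 of 7. The labels do not say what a number stands for. Across the 21 libraries IL1B and TNF varied together (Pearson r = 0.865), as a description of libraries that share groups, numbers and depth.

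iMDK given to the tumour cells before co-culture was followed by no call among these genes. IL1B had 17.1, 8.57 and 8.15 CPM with untreated HepG2, 21.6, 7.01 and 6.67 CPM with HepG2 given 5 µM, and 23.4, 8.80 and 9.05 CPM with HepG2 given 10 µM. All 3 groups overlapped. For IL1B the log2 fold change was -0.02 at 5 µM (95% interval -0.46 to 0.41) and 0.24 at 10 µM (-0.19 to 0.67). For IL1RN it was 0.09 (-0.12 to 0.31) and 0.07 (-0.15 to 0.29), and for TNF -0.27 (-0.84 to 0.29) and 0.18 (-0.38 to 0.74). The intervals of IL1RN were the narrowest of these 3 genes, and those of TNF, which had few counts, the widest. At 5 µM 0 of 7 genes passed, 0 had an unadjusted p under 0.05, and 3.96% of all genes passed. At 10 µM 0 of 7 passed, 0 had an unadjusted p under 0.05, and 11.6% of all genes passed. DESeq2's Wald test also called 0 at either dose. After subtraction of tumour reads, whose share differed between these groups, IL1B gave -0.10 at 5 µM and 0.12 at 10 µM, IL1RN 0.05 and 0.00, TNF -0.35 and 0.06, and TGFB1 -0.14 and -0.13, none past the threshold.

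With Huh6 given iMDK no gene was called either. IL1B had 26.7, 14.7 and 12.1 CPM with untreated Huh6, 40.2, 19.1 and 14.2 CPM with Huh6 given 5 µM, and 43.6, 9.35 and 17.2 CPM with Huh6 given 10 µM. At 5 µM each library was above the untreated one of its number, by 0.59, 0.38 and 0.23 on the log2 scale, but the groups overlapped. The log2 fold change was 0.41 ± 0.181, and edgeR's quasi-likelihood test gave an unadjusted p of 0.0304 and a Benjamini-Hochberg adjusted p of 0.735. At 10 µM IL1B gave 0.27 (95% interval -0.12 to 0.67). TNF at 10 µM had 8.59, 3.90 and 3.50 CPM, against 6.86, 2.87 and 2.41 CPM with untreated Huh6. It was above in 3 of 3 numbers with a log2 fold change of 0.42 ± 0.232 (edgeR quasi-likelihood test, Benjamini-Hochberg adjusted p = 0.705). At 5 µM 0 of 7 genes passed, against 0.135% of all genes, and 1 gene, IL1B, had an unadjusted p under 0.05. At 10 µM 0 of 7 passed, against 0.484% of all genes, with 0 at an unadjusted p under 0.05, and DESeq2 called 0 at both doses. After subtraction IL1B gave 0.39 at 5 µM and 0.25 at 10 µM, and TNF -0.06 and 0.40, none past the threshold. The difference of the iMDK response between the co-cultured lines was called for 0 of 7 genes at 5 µM (0.123% of all genes) and at 10 µM (1.21%), with 0 at an unadjusted p under 0.05 and 0 by DESeq2.

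Over the 7 THP-1 groups, IL1B varied most, its highest group mean being 4.55 times its lowest, and TGFB1 least, at 1.15 times. TNF varied 2.75 times, PTGS2 2.18, IL1RN 2.09, IL10 1.30 and NLRP3 1.25 times. IL1RN averaged 63.6 ± 6.09, 68.1 ± 11.4 and 66.9 ± 8.71 CPM with HepG2 given 0, 5 and 10 µM iMDK, 92.1 ± 6.36, 89.7 ± 3.20 and 87.8 ± 7.06 CPM with Huh6 given the same doses, and 133 ± 17 CPM in monoculture (SD, n = 3 each). The groups of IL1RN thus stood in 3 tiers by partner line, and neighbours within a tier overlapped. IL1B averaged 11.3 ± 5.05, 11.8 ± 8.52 and 13.8 ± 8.37 CPM with HepG2 at those doses, 17.8 ± 7.82, 24.5 ± 13.8 and 23.4 ± 18 CPM with Huh6, and 51.4 ± 41.2 CPM in monoculture. Its order of lines was the same, but each group of IL1B overlapped the next, with library 1 high throughout. TNF averaged 2.89 ± 1.44, 2.50 ± 2.06 and 3.25 ± 1.53 CPM with HepG2, 4.05 ± 2.45, 4.07 ± 2.82 and 5.33 ± 2.83 CPM with Huh6, and 6.88 ± 1.76 CPM in monoculture, and neighbouring TNF groups overlapped. TGFB1 group means lay between 520 and 597 CPM.

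The genes whose log2 CPM was most like that of a member over the 21 libraries were named by Pearson's r, as a description. NTSR1 (r = 0.967), STRA6 (0.961) and SPOCK1 (0.955) were most like IL1B. PPIF (0.956), HMGB3 (0.933) and EPB41L3 (0.929) were most like IL1RN, and UPP1 (0.847), ZNF768 (0.833) and CD81 (0.798) most like TGFB1. For IL10 the highest r was 0.765, with GZF1. For NLRP3 the highest r was 0.761, with a gene that has no symbol, and TESK1 followed at 0.670. TNF and PTGS2 were below the level set for this measure.

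Genes of the same pathways were counted in 5 lists. The receptors and decoys of these cytokines did not move one way. With HepG2, 3 of 15 tested genes rose and 3 fell, a share near the 33% of all genes that passed, with a median log2 fold change of 0.03 against -0.01 over all genes. With Huh6, 2 of the 15 rose and 0 fell (median 0.03, against 0.00 over all genes, 5.98% of which passed). The calls with Huh6 rested on the block: without it 0 genes of the first 4 lists and 1 of the last passed, against 2, 2, 3, 1 and 3 with it. Calls over all genes fell too, from 927 of 15500 with the block to 283 without it, so this loss is not particular to the lists. Counts of listed genes after subtraction are given below without a share over all genes. IL18BP, the secreted protein that binds interleukin 18, averaged 40.6 ± 5.3 CPM with HepG2 and 32.7 ± 2.7 CPM with Huh6, against 20.2 ± 4.5 CPM in monoculture. It rose by 1.01 ± 0.142 with HepG2 and by 0.73 ± 0.144 with Huh6 on the log2 scale (edgeR quasi-likelihood test, Benjamini-Hochberg adjusted p = 3.6e-06 and 0.00197). The differences were 1.17 and 0.74 after subtraction of tumour reads, and the untreated tumour lines had 6.46 CPM (HepG2) and 5.17 CPM (Huh6) themselves. With HepG2 given 10 µM iMDK, IL18BP was lower than with untreated HepG2, by -0.47 on the log2 scale (edgeR's Benjamini-Hochberg adjusted p = 0.0294) and by -0.58 after subtraction (adjusted p = 0.00941). With Huh6 given 10 µM the difference was -0.68 (adjusted p = 0.0254 in edgeR), and it did not pass after subtraction (-0.70, adjusted p = 0.099). TGFBR2, a receptor of TGFB1, fell by 0.45 with HepG2. The fall was 1.14 once tumour reads were subtracted, but untreated HepG2 cells had 525 CPM of it, against 99.4 CPM in these macrophage libraries. Its size after subtraction therefore rests on the estimated share. The rise of TGFBR3, a coreceptor of TGFB1, by 0.98 with HepG2 turned to -9.54 after subtraction, its level being 351 CPM in HepG2 cells and 12.4 CPM in these macrophage libraries, so it has no direction here. For genes with far more RNA in the tumour line, the subtraction can take away too much.

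Among 20 tested genes of inflammasomes and cytokine processing, 4 rose and 5 fell with HepG2 (median -0.07, against -0.01 over all genes, 33% of which passed). With Huh6 0 of the 20 rose and 2 fell, where 5.98% of all genes passed. The 2 were AIM2, a sensor of cytosolic DNA, and NLRP12, a relative of NLRP3. AIM2 averaged 1.96 ± 0.839 CPM with HepG2 and 2 ± 1.02 CPM with Huh6, against 4.19 ± 1.91 CPM in monoculture (SD, n = 3 each). Its log2 fold changes were -1.09 ± 0.263 and -1.06 (edgeR quasi-likelihood test, Benjamini-Hochberg adjusted p = 0.00206 and 0.0135). NLRP12 averaged 6.65 ± 2.91 CPM with HepG2 and 5.98 ± 0.781 CPM with Huh6, against 12.2 ± 3.26 CPM in monoculture. Its log2 fold changes were -0.91 ± 0.177 and -0.99 (adjusted p = 0.000249 and 0.000808 in edgeR). Both genes passed after subtraction too. Of all 20 genes, 9 passed with HepG2, and 4 passed without the block. Of all 15500 genes tested, 5118 passed with HepG2, and 3354 without the block. NLRP1, another sensor, rose by 0.82 and PANX1, a membrane channel, fell by 0.49 with HepG2.

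Of 29 tested genes of the NF-kappaB family and its feedback inhibitors, 4 rose and 11 fell with HepG2, where 33% of all genes passed and 16.2% fell. The median log2 fold change was -0.08 against -0.01 over all genes, and 10 of the 29 passed without the block and 12 after subtraction. Of all 15500 genes tested, 3354 passed without the block, against 5118 with it. With Huh6, 0 of the 29 rose and 3 fell, where 5.98% of all genes passed and 1.9% fell. The median was -0.03, against 0.00 over all genes. NFKBIE, an inhibitor that holds NF-kappaB in the cytoplasm, averaged 57.5 ± 2.86 CPM with HepG2 and 90.2 ± 6.84 CPM with Huh6, against 109 ± 8.31 CPM in monoculture. It fell by 0.92 ± 0.0757 with HepG2 (edgeR quasi-likelihood test, Benjamini-Hochberg adjusted p = 5.47e-10). BCL3, a nuclear partner of NF-kappaB subunits, averaged 34.4 ± 8.6 CPM with HepG2 and 43.8 ± 5.75 CPM with Huh6, against 59.9 ± 11.5 CPM in monoculture, and fell by 0.81 ± 0.0739 and by 0.42 (adjusted p = 3.77e-09 and 0.000454 in edgeR). NFKB1, which encodes a subunit of NF-kappaB, averaged 28.4 ± 2.9 CPM with HepG2, 45.7 ± 4.18 CPM with Huh6 and 44.2 ± 1.28 CPM in monoculture, and fell by 0.64 with HepG2. TNFAIP2, a gene induced by TNF, rose by 0.66 there. With Huh6 the falls of NFKBIE (by 0.25) and of the subunit gene RELB (by 0.32) were close to the threshold (adjusted p = 0.041 and 0.044 in edgeR). After subtraction they were -0.23 and -0.30 and did not pass (adjusted p = 0.087 and 0.102), and 1 gene of the 29 passed; the vehicle-treated Huh6 line itself had 5.3 CPM of NFKBIE and 1.11 CPM of RELB. With HepG2 given 10 µM iMDK, 4 of the 29 rose and 1 fell relative to untreated HepG2, where 11.6% of all genes passed. NFKB1 rose there by 0.32 (adjusted p = 0.0131 in edgeR), and by 0.54 after subtraction. Untreated HepG2 cells had 84.7 CPM of NFKB1, against 28.4 CPM in the macrophage libraries with untreated HepG2. The size of its rise after subtraction therefore rests on the estimated share.

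Of 8 tested genes of prostaglandin synthesis, 4 rose and 1 fell with HepG2 (median 0.25, against -0.01 over all genes, 33% of which passed). With Huh6 1 of the 8 rose and 0 fell, where 5.98% of all genes passed. Without the block 3 of the 8 passed with HepG2, where 3354 of all 15500 genes passed, against 5118 with the block. PTGS1, the constitutive counterpart of PTGS2, averaged 262 ± 12.6 CPM with HepG2 and 189 ± 20.4 CPM with Huh6, against 183 ± 10.9 CPM in monoculture, and rose by 0.52 with HepG2 (edgeR's Benjamini-Hochberg adjusted p = 3.47e-06). TBXAS1, thromboxane synthase, averaged 78.7 ± 8.75 CPM with HepG2 and 72.4 ± 8.81 CPM with Huh6, against 53.4 ± 8.36 CPM in monoculture, and rose by 0.56 and 0.47. The untreated HepG2 line had 0.101 CPM of PTGS1 and 8.25 CPM of TBXAS1. AKR1C3, a prostaglandin reductase, had 24.0 ± 2.71 CPM with HepG2 and 0.415 CPM in monoculture, while HepG2 cells themselves had 303 CPM. After subtraction it gave -2.42 and did not pass (adjusted p = 0.403 in edgeR).

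Among 24 tested cytokines outside the 10, 6 rose and 5 fell with HepG2 (median -0.04, against -0.01 over all genes, 33% of which passed). With Huh6 2 of the 24 rose and 1 fell, where 5.98% of all genes passed. With HepG2, 7 of the 24 passed after subtraction, 6 without the block and 6 to 9 on leaving out libraries, and with Huh6 1 passed after subtraction. Of all 15500 genes with HepG2, 5118 passed in the main fit, 3354 without the block and 3290 to 4776 on leaving out libraries. TNFSF10, the death ligand TRAIL, averaged 5.44 ± 0.354 CPM with HepG2 and 1.40 ± 0.356 CPM with Huh6, against 0.843 ± 0.248 CPM in monoculture. It rose by 2.69 ± 0.298 with HepG2 (edgeR quasi-likelihood test, Benjamini-Hochberg adjusted p = 9.17e-08), and by 2.76 after subtraction. OSM, oncostatin M, an interleukin 6 family cytokine, averaged 0.190 ± 0.108 CPM with HepG2 and 0.484 ± 0.3 CPM with Huh6, against 1.11 ± 0.205 CPM in monoculture, and was 0 in both untreated tumour lines. It fell by 2.51 ± 0.511 with HepG2 (adjusted p = 0.000405 in edgeR), from few counts. VEGFA, the vascular growth factor, fell by 0.37 with Huh6. IL32 averaged 16.2 ± 1.06 CPM with HepG2, 2.15 ± 0.812 CPM with Huh6 and 0.369 ± 0.0763 CPM in monoculture, but the tumour lines had 184 CPM (HepG2) and 26.8 CPM (Huh6), and neither rise passed after subtraction. LIF, listed at 0 in monoculture, had 1.14 CPM with HepG2 and 21.5 CPM in HepG2 cells. With HepG2 given 10 µM iMDK, 0 of these 24 rose and 2 fell relative to untreated HepG2, where 11.6% of all genes passed. TNFSF10 fell by 1.33 (adjusted p = 0.00165 in edgeR), and by 1.43 after subtraction. IL32 fell by 1.14 (adjusted p = 0.000841 in edgeR), which did not pass after subtraction (-2.91, adjusted p = 0.131). At 5 µM 0 rose and 2 fell, against 3.96% of all genes. TNFSF10 fell by 0.92 and LTBP3, a binding protein of latent TGFB1, by 0.32 (adjusted p = 0.0428 and 0.0396 in edgeR). LTBP3 had 76.5 to 125 CPM at 5 µM and 108 to 124 CPM with untreated HepG2, so the groups overlapped. HepG2 cells themselves had 162 CPM of it. Estimated tumour reads were 4.22 to 5.98% at 5 µM and 7.25 to 9.72% with untreated HepG2, so its fall is not assigned to the macrophages. With Huh6 given 10 µM only IL32 of the 24 fell, by 1.73 (adjusted p = 0.0251 in edgeR, 0.756 after subtraction), where 0.484% of all genes passed. At 5 µM none of the 24 passed, against 0.135% of all genes.

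**Figure D3:**
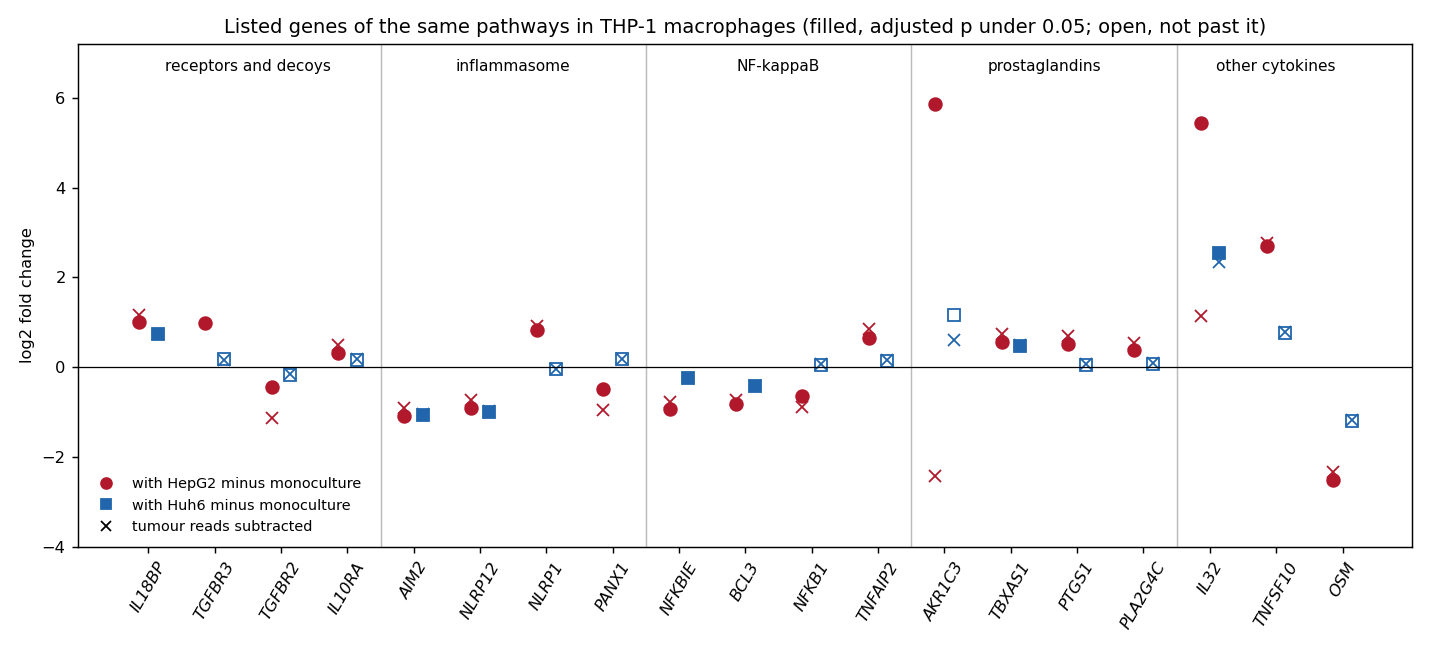
Log2 fold changes of 19 listed genes in THP-1 macrophages with untreated HepG2 (red) and with untreated Huh6 (blue) relative to monoculture, where crosses give the value after subtraction of tumour reads. IL18BP lies above 0 and NLRP12, AIM2 and BCL3 below 0 with both lines, while the cross of TGFBR3 with HepG2, at -9.54, lies off the axis and is not drawn.

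The tumour lines themselves expressed few of the 10 genes. With vehicle, TGFB1 was highest in both, at a mean of 18.9 CPM per kb in HepG2 and 7.21 CPM per kb in Huh6. IL1RN reached 11.3 CPM per kb with vehicle in HepG2, while 15 of 18 Huh6 libraries had 0 counts of it. IL1A, with few counts, was at 0.135 CPM per kb with vehicle in HepG2 and 0.246 CPM per kb with vehicle in Huh6. IL1B had 0 to 4 counts in any tumour library and TNF 0 to 8, and NLRP3 was at 0 in 13 of 13 HepG2 libraries and in 16 of 18 Huh6 libraries. PTGS2 had 0 or 1 counts in HepG2 and 0 to 11 in Huh6, where it had 7, 11 and 4 counts at 0.4 µM PKF118-310 and 1, 1 and 4 with vehicle, below the filter for a test. IL10 had 0 or 1.

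TGFB1 rose in HepG2 with both inhibitors. It had 58.8, 60.1 and 65.2 CPM with vehicle, 126, 130 and 124 CPM at 0.2 µM PKF118-310, and 104 CPM in the single library at 0.3 µM. The groups lay well apart, and the log2 fold change at 0.2 µM was 1.05 ± 0.0433 (edgeR quasi-likelihood test, Benjamini-Hochberg adjusted p = 2.23e-23). With iMDK it had 92.6, 86.8 and 85.4 CPM at 5 µM and 104, 108 and 105 CPM at 10 µM. The log2 fold changes were 0.53 ± 0.0446 and 0.79 ± 0.0439 (adjusted p = 5.67e-13 and 1.1e-18 in edgeR), and all iMDK values lay above all vehicle values.

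In Huh6 the differences of TGFB1 were smaller. It had 23.6, 24.5 and 21.9 CPM with vehicle, 25.5, 26 and 21.8 CPM at 0.2 µM PKF118-310, 24.8, 24.6 and 25 CPM at 0.3 µM, and 32, 29 and 29.3 CPM at 0.4 µM. It rose only at 0.4 µM, by 0.37 ± 0.0736 on the log2 scale (edgeR quasi-likelihood test, Benjamini-Hochberg adjusted p = 3.73e-05), and the lower doses gave 0.07 and 0.09. With iMDK it had 31, 30.7 and 25.2 CPM at 5 µM and 35.3, 31.8 and 33.8 CPM at 10 µM, and every value exceeded those with vehicle. The log2 fold changes were 0.31 ± 0.0734 and 0.53 ± 0.0723 (adjusted p = 0.000632 and 4.06e-08 in edgeR). The difference of the responses, HepG2 minus Huh6, was tested at matched doses in 1 fit of both lines. It was 0.97 ± 0.0871 at 0.2 µM PKF118-310, 0.23 ± 0.0862 at 5 µM iMDK and 0.29 ± 0.0849 at 10 µM iMDK (edgeR quasi-likelihood test, Benjamini-Hochberg adjusted p = 8.04e-15, 0.0411 and 0.00483). Of all genes 49.9%, 29.1% and 36.9% passed this test. The call at 5 µM was lost in 6 of 12 fits that left out 1 library.

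IL1A, which encodes interleukin 1 alpha, had few counts but rose with iMDK in HepG2. It had 8, 4 and 4 counts with vehicle, 25, 39 and 46 counts at 5 µM, and 30, 27 and 35 counts at 10 µM, with no overlap between vehicle and either dose. These gave log2 fold changes of 2.65 ± 0.409 and 2.38 ± 0.421 (edgeR quasi-likelihood test, Benjamini-Hochberg adjusted p = 7.91e-07 and 6.54e-06). At 0.2 µM PKF118-310 it had 11, 10 and 26 counts, with a log2 fold change of 1.42 ± 0.471 (adjusted p = 0.00794 in edgeR). Without the library of 26 counts this was 0.86 and did not pass (adjusted p = 0.151). In Huh6 IL1A had 24, 22 and 30 counts at 10 µM iMDK, against 12, 12 and 7 with vehicle, and rose by 1.31 ± 0.378 (adjusted p = 0.00326 in edgeR). At 5 µM iMDK it had 20, 18 and 20 counts (log2 fold change 0.87, adjusted p = 0.0822). PKF118-310 at 0.2, 0.3 and 0.4 µM gave 0.44, 0.41 and 0.78, none past the threshold. At 0.4 µM the counts were 11, 12 and 28, and without the library of 11 the difference was 1.02 (adjusted p = 0.0419 in edgeR).

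In the fits of single lines, IL1RN could be tested in HepG2 only. It had 39.7, 34.9 and 35.3 CPM with vehicle, 14.1, 11.7 and 11.7 CPM at 0.2 µM PKF118-310, and 22.8 CPM in the single library at 0.3 µM. It fell by 1.56 ± 0.078 at 0.2 µM (edgeR quasi-likelihood test, Benjamini-Hochberg adjusted p = 1.47e-20). With iMDK it had 40.8, 38.3 and 43.4 CPM at 5 µM, overlapping the vehicle values, and 32.1, 30.7 and 28.8 CPM at 10 µM, all below them. The log2 fold change was 0.16 ± 0.0657 at 5 µM (adjusted p = 0.0477 in edgeR, above 0.05 in 6 of 10 alternatives) and -0.26 ± 0.068 at 10 µM (adjusted p = 0.00112).

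In HepG2 the test was passed by 3 of 3 genes at 0.2 µM PKF118-310 (67.7% of all genes), by 3 of 3 at 5 µM iMDK (47.3%) and by 3 of 3 at 10 µM (54.6%). In Huh6 it was passed by 0 of 2 genes at 0.2 µM PKF118-310 (2.24% of all genes), 0 of 2 at 0.3 µM (28.5%) and 1 of 2 at 0.4 µM (56.8%), with 0 at an unadjusted p under 0.05 and 0 by DESeq2 at the 2 lower doses. With iMDK it was passed by 1 of 2 at 5 µM (35.6%) and 2 of 2 at 10 µM (52.1%). With 47.3 to 67.7% of all genes past the threshold in HepG2, a call did not set these genes apart.

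**Figure D4:**
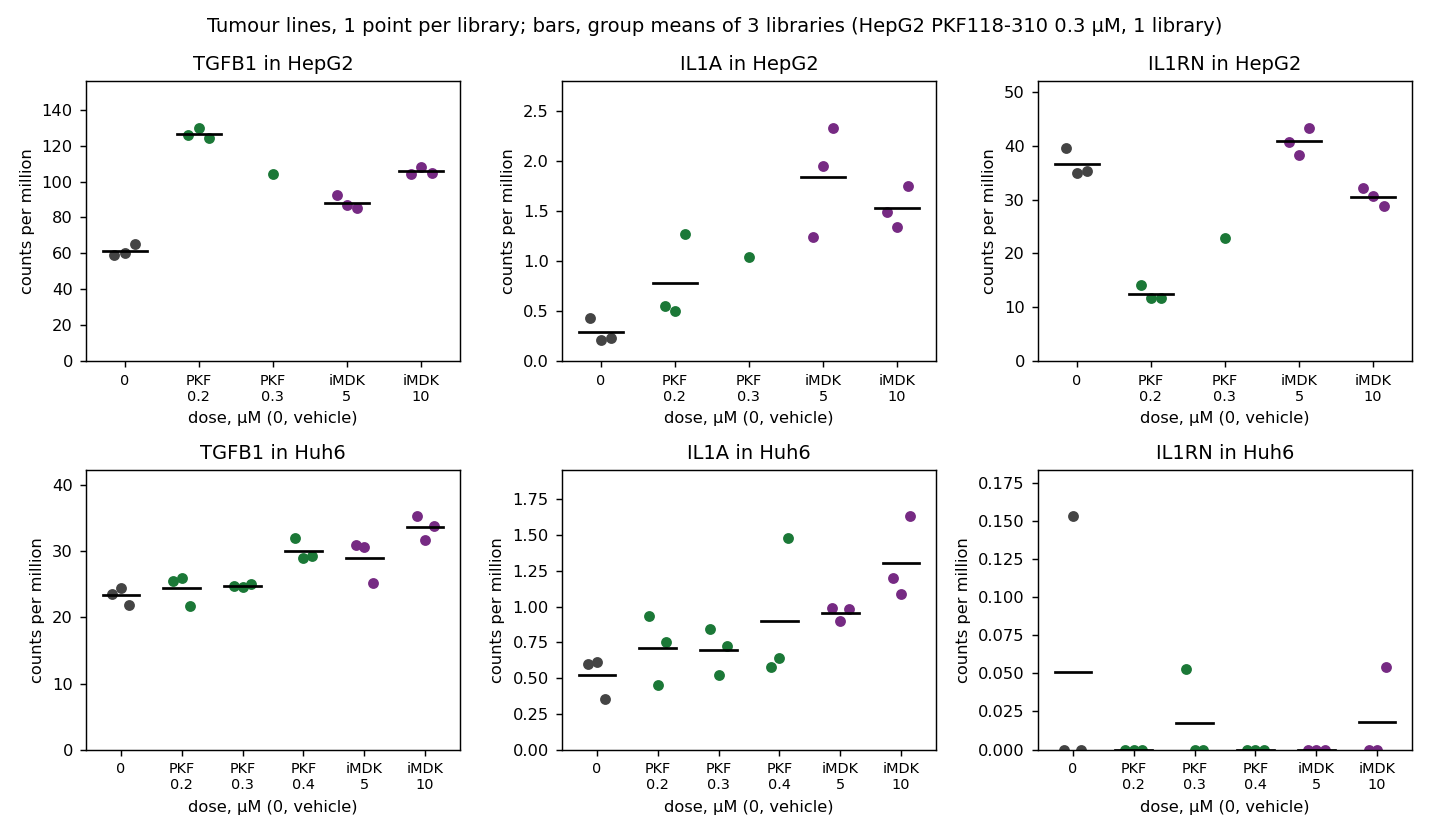
CPM of TGFB1, IL1A and IL1RN in HepG2 and Huh6 cells grown without macrophages, by dose of PKF118-310 and iMDK, 1 point per library. TGFB1 in HepG2 lies at 124 to 130 CPM at 0.2 µM PKF118-310 and at 58.8 to 65.2 CPM with vehicle, HepG2 at 0.3 µM has 1 library, and IL1RN in Huh6 rests on 0 to 3 counts per library.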

How the data were processed

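The measurements were poly(A) RNA sequencing of 52 libraries of established cell lines. The authors deposited raw read counts per gene, in a table for the tumour lines and a table for THP-1. Per the submitters' processing notes, STAR 2.7.3a, SAMtools 1.16.1, featureCounts and edgeR 3.36 were used on GRCh38. Neither the strand setting nor the annotation release of the counting is stated there.

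Samples were grouped by their titles and protocols. The count test was that of edgeR 4.0.16, run in R 4.3.3 beside limma 3.58.1, on genes passing filterByExpr by group (15500 in THP-1, 15451 in HepG2, 15029 in Huh6), TMM scaling, the two-sided quasi-likelihood F test, and Benjamini-Hochberg adjustment over all genes tested, with a threshold of 0.05. THP-1 was fitted with the library number as a block, since the choice of these genes asked for it, and the tumour lines without. A joint fit of both lines (17572 genes) gave the tests of a difference between them and was added after the data were seen, as was the subtraction of tumour reads. CPM are counts scaled to a library total of 1000000. SE is the size of the log2 fold change divided by the square root of F. Intervals and the limit of 3 counts cover counting error or library spread only. Tumour reads were estimated from liver markers with at least 100 CPM in the matching line: each marker's level above the monoculture mean was divided by its level in the line, and the share is the median of these ratios. The tumour profile came from cells treated for 48 h without macrophages.

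The 10 genes, the lists and the markers were chosen with earlier results of these data known. Up to 4 called genes per list and comparison, with the largest change, could be named. The names in the text are a selection from them, made after their values were seen. The tests were tried on simulated counts. Alternatives were the block, DESeq2 1.42.0 (size factors, Wald test), no filter, and leaving out each library or number.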

Additional observations from a re-analysis of the deposited data

Results flagged for a closer look

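In 4 cases the response of a gene to an inhibitor differed between the tumour lines by a test of the difference itself, HepG2 minus Huh6 on the log2 scale, at the same dose. Of 4 genes tested in the joint fit, 1 passed at 0.2 µM PKF118-310, 2 at 5 µM iMDK and 1 at 10 µM. Of all genes, 49.9%, 29.1% and 36.9% passed at these doses. TGFB1 responded more in HepG2 at 0.2 µM PKF118-310, by 0.97 ± 0.0871 (edgeR quasi-likelihood test, Benjamini-Hochberg adjusted p = 8.04e-15). At that dose 3 of 3 HepG2 libraries lay above the vehicle range, at 124 to 130 CPM against 58.8 to 65.2 CPM, while in Huh6 the libraries at 21.8 to 26 CPM overlapped the vehicle range of 21.9 to 24.5 CPM. TGFB1 also responded more in HepG2 to iMDK, by 0.29 at 10 µM (adjusted p = 0.00483 in edgeR) and by 0.23 at 5 µM (adjusted p = 0.0411). The value at 5 µM was 0.13 without Huh6 library 3 at 5 µM (adjusted p = 0.282 in edgeR). IL1A responded more in HepG2 at 5 µM iMDK, by 1.79 ± 0.603 (adjusted p = 0.0182 in edgeR), with 25 to 46 counts against 4 to 8 with vehicle in HepG2 and 18 to 20 against 7 to 12 in Huh6. These low counts limit its precision, and the call was lost in 4 of 12 fits that left out 1 library, with a lowest value of 1.58 (adjusted p = 0.0503 in edgeR). The same test of IL1A did not pass at 10 µM iMDK (1.09 ± 0.6, adjusted p = 0.159 in edgeR) or at 0.2 µM PKF118-310 (0.97 ± 0.641, adjusted p = 0.221).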

How the results depend on the processing

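Over all alternatives, 1315 of the values of single genes kept their side of the threshold, 30 no longer passed, 3 newly passed and 0 called values turned direction. A change of sign in a value that was not called was counted as kept. Without the replicate block, the genes called among the 7 numbered 2 for HepG2 against monoculture (3 with it), 1 for Huh6 against monoculture (3 with it) and 1 for HepG2 against Huh6 (2 with it). In the tumour lines, adding a replicate block changed none of the counts of members called. Same-numbered THP-1 libraries had a median correlation of deviations from their group means of 0.179, from -0.0159 to 0.386. Libraries of different numbers and groups had a median of -0.0985. Deviations from a group mean sum to 0, so a median below 0 follows from the same-numbered values and is no separate contrast. Of 63 same-numbered pairs, 43 were over 0.1. For 19 of 21 libraries, the mean correlation with libraries of other groups was highest for their own number. In Huh6 0 of 45 pairs and in HepG2 0 of 18 were over 0.1. In THP-1 not every same-numbered pair was over 0.1, so the data give only a hint that numbers pair libraries. What else same-numbered libraries share is not stated in the labels. After subtraction of tumour reads, 1 gene was called for HepG2 against Huh6.

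Leaving out libraries gave 1 to 2 genes called for THP-1 with HepG2 against Huh6, 2 to 3 with Huh6 against monoculture, 3 to 4 with HepG2 against monoculture, 1 to 2 for Huh6 at 0.4 µM PKF118-310, and 0 to 2 for the difference of the responses to 5 µM iMDK between tumour lines. It gave 2 to 3 for HepG2 at 0.2 µM PKF118-310 and at 5 µM iMDK.

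Counts over all genes were 5118 with the block and 3354 without for HepG2 against monoculture, 927 and 283 for Huh6 against monoculture, and 4505 and 2586 for HepG2 against Huh6. For THP-1 with HepG2 given iMDK they were 614 and 14 at 5 µM, and 1802 and 518 at 10 µM. With Huh6 given iMDK they were 21 and 2 at 5 µM, and 75 and 9 at 10 µM. The difference of the iMDK responses between co-cultured lines gave 19 and 2 at 5 µM, and 188 and 5 at 10 µM. Without a filter on low counts, 154 genes passed with Huh6 given 5 µM and 274 with 10 µM, 922 with HepG2 given 5 µM, and 234 and 461 for the differences at 5 and 10 µM. DESeq2 called 40 with Huh6 given 5 µM and 77 for the difference at 5 µM. Leaving out libraries gave 59 to 767 and 390 to 1719 genes with HepG2 given 5 and 10 µM, 0 to 77 and 4 to 134 with Huh6 given 5 and 10 µM, 0 to 77 and 3 to 259 for the differences at 5 and 10 µM, 3290 to 4776 for HepG2 against monoculture, 253 to 892 for Huh6 against monoculture, 2311 to 4290 for HepG2 against Huh6, and 215 to 242 for Huh6 at 0.2 µM PKF118-310 (337 with all libraries). The cause was not tested. PTGS2, IL1A and TNF had few counts in macrophages, which limits what can be seen for them.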
